A study of Homo sapiens with 9 samples.

Results

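The genes described are the activators of plasminogen, their receptor and inhibitors, and the starter of blood clotting with the proteins that restrain it. The list held 9 genes, PLAU, PLAUR, PLAT, SERPINE2, SERPINB2, F3, TFPI, TFPI2 and THBD, and each probe annotated to one of them is reported. Of these genes 8 had a probe, out of 18850 genes named on the array, and SERPINB2 (plasminogen activator inhibitor of the serpin family) had none in the annotation used here. The 8 genes had 13 of the 48799 probes, and all 13 were among the 16164 probes detected on enough arrays to be tested, so none was dropped by the filter on low values. SERPINE2 is therefore the only serpin of the list with a value.

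Urokinase (PLAU) and tissue plasminogen activator (PLAT) are secreted proteases that cut plasminogen into plasmin, which dissolves fibrin and degrades matrix. Urokinase acts at the cell surface when bound to its receptor PLAUR, and serpins such as SERPINE2 trap the activators in inactive complexes. Tissue factor (F3) is the membrane protein that starts coagulation with factor VII, TFPI blocks that step, TFPI2 is a related inhibitor secreted into the matrix that also blocks plasmin, and thrombomodulin (THBD) turns thrombin from clotting towards activation of protein C. Breast cancer lines with mesenchymal features are known for high levels of the urokinase system and of tissue factor.

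RNA came from MDA-MB-231, an established human breast cancer line, taken 72 h after transfection. The control cells received an siRNA directed at luciferase (Luc), and the other groups received RBP2-si1 (KD1) or RBP2-si2 (KD2), which are separate siRNAs directed at KDM5A. KDM5A, also named RBP2 or JARID1A, is an enzyme that takes methyl groups off lysine 4 of histone H3. Each group had 3 Illumina bead arrays. All cells thus share the line and the transfection, and an untransfected group is not analysed here.

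Between 14529 (KD1 replicate 3) and 17538 (Luc replicate 3) probes were detected on an array, and array pairs correlated at 0.9846 to 0.9884 inside a group and at 0.9613 to 0.9735 across groups. No probe carried the symbol KDM5A, so the extent of the knockdown is not given. The arrays share 1 slide, with Luc and KD2 at positions A to F and KD1 at G, I and K, so position on the slide and KD1 cannot be told apart. Whether each array had its own culture is not in the labels, and the p-values then measure the scatter among these arrays alone, which could be technical. The 5 mesenchymal markers (VIM, CD44, AXL, MSN and CAV1) were detected on all 9 arrays. Of markers of other cells that express these genes, the endothelial CDH5 and TEK and the platelet PF4, ITGA2B and GP9 were detected on none. The endothelial VWF was detected on 2 arrays. PECAM1 was detected on all 9 arrays at group means of 5.54 to 5.73, near the detection floor of 5.03 to 5.26. All levels below are normalized log2 intensities, a change is a difference of group means on that scale, and a probe is called at an adjusted p under 0.05 in limma over all tested probes.

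Many of these genes changed with each siRNA, some in the same direction with both and some not. Against Luc, KD1 gave 3 higher and 5 lower probes of 13, with 15.4% of all tested probes called in that comparison, 6.72% higher and 8.72% lower. KD2 gave 5 higher and 3 lower of 13, with 21.4% called over all probes, 10.3% higher and 11.1% lower. The receptor PLAUR rose and SERPINE2 and F3 fell with both siRNAs, which makes 6 of 13 probes called in the same direction in both comparisons (3 higher and 3 lower), against 5.09% of all tested probes (2.54% higher and 2.56% lower). PLAU fell with KD1 and not with KD2, PLAT fell with KD1 and rose with KD2, and TFPI2 rose with KD2. The median change over the 13 probes was -0.27 with KD1 and 0.39 with KD2, beside 0.00 over all tested probes in each. Both comparisons use the same Luc arrays, and probes of 1 gene share its RNA, so the probes are not independent of each other. The members were also chosen with earlier results of these data known, so the counts beside the whole-array shares are a description only.

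**Figure D1:**
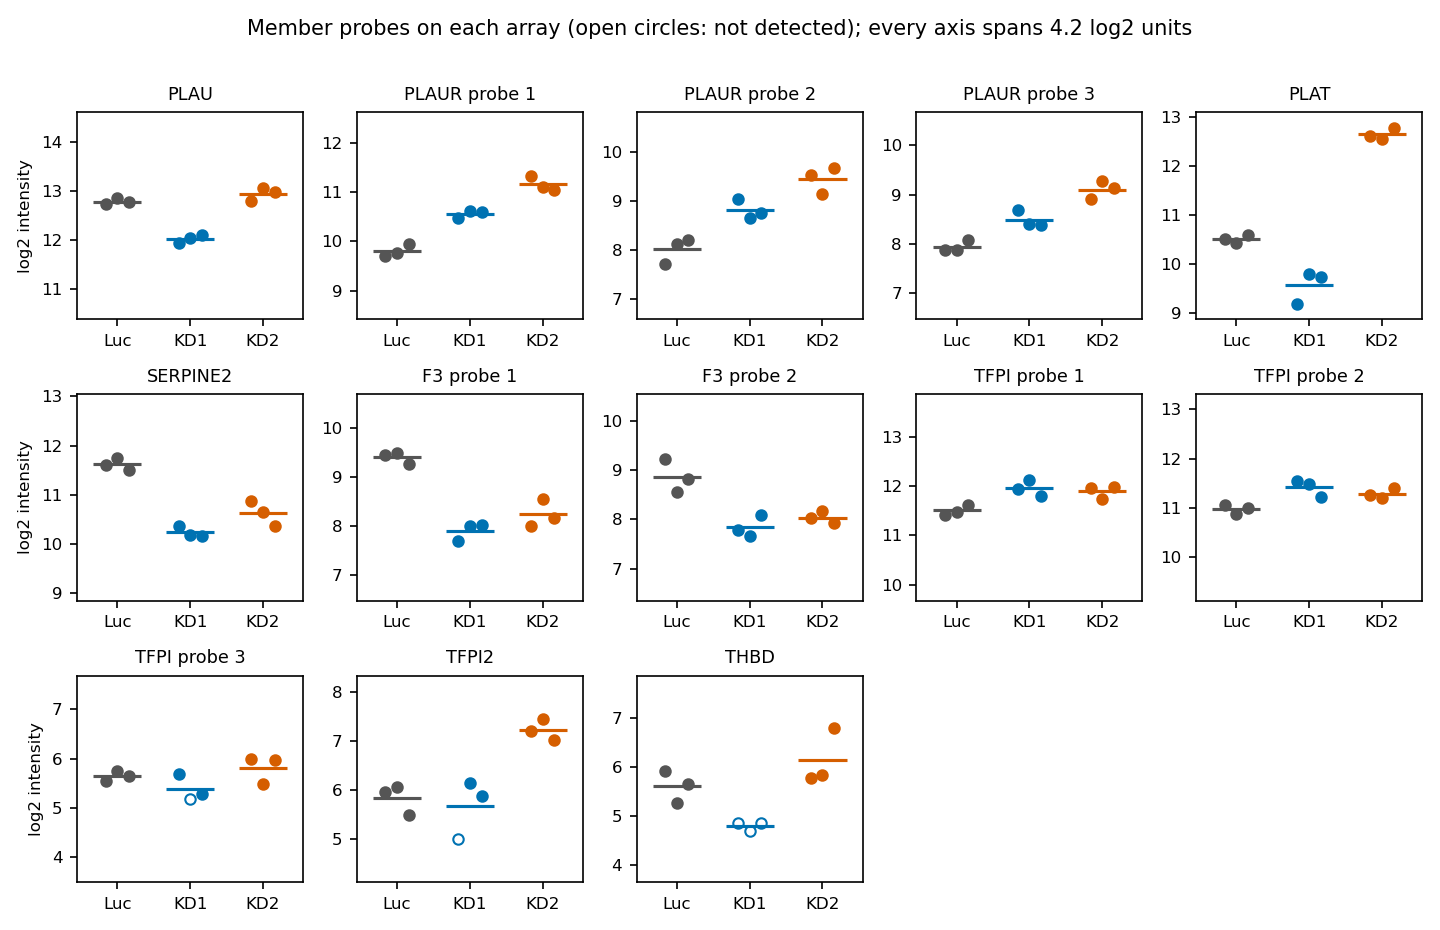
Each panel shows 1 member probe, with the normalized log2 intensity on the vertical axis and the groups Luc, KD1 and KD2 on the horizontal axis. Points are arrays, open circles are arrays without detection, and bars give the group mean (n = 3). PLAT separates the 3 groups, with KD1 lowest (9.20 to 9.81) and KD2 highest (12.55 to 12.78), and the F3 and SERPINE2 arrays of both siRNAs lie below those of Luc.

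The sequences before the start sites are shown for PLAUR, F3 and SERPINE2, since these moved in the same direction in both groups. They are the 250 bases before the transcript start in RefSeq, build GRCh38.p14, all on the minus strand and written 5′ to 3′. They lie at chr19:43670170-43670419 for PLAUR, at chr1:94541760-94542009 for F3, and at chr2:224031479-224031728 and chr2:224038641-224038890 for the starts 1 and 2 of SERPINE2. Capitals mark matches to the AP-1 motif TGANTCA and to the TATA box TATAAA, each sought on both strands.
PLAUR: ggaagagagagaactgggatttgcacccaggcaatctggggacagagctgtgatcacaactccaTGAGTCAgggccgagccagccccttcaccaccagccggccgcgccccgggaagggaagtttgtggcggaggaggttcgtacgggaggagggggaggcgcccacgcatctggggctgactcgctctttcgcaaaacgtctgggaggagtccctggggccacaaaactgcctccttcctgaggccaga
F3: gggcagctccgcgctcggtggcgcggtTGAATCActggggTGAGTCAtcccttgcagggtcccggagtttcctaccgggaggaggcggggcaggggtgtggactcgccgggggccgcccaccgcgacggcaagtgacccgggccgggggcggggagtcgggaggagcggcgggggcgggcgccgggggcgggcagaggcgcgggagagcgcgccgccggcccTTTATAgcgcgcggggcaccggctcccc
SERPINE2 start 1: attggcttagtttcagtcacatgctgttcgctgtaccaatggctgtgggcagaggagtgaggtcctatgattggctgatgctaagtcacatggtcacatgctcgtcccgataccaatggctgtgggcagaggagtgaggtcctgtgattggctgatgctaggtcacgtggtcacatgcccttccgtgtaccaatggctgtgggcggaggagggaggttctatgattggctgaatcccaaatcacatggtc
SERPINE2 start 2: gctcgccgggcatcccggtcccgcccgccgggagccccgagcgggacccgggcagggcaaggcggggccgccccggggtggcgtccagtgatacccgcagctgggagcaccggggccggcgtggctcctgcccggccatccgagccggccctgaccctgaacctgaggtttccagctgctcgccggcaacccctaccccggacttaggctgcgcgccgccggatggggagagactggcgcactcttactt
The F3 promoter held 2 AP-1 matches, whose first letters lie 223 and 210 bases before the start, and 1 TATA box match, on the reverse strand, at 28 bases. The PLAUR promoter held 1 AP-1 match, at 186 bases, and no TATA box match. Neither SERPINE2 promoter held either motif. Of 35116 promoters of the same length, 6.57% held the AP-1 motif and 10.7% the TATA box.

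The GC box GGGCGG, sought on both strands, matched 4 times in F3, once in SERPINE2 start 1 and 2 times in start 2, and was absent from PLAUR, beside a share of 42.6% of all promoters. The TEAD motif GGAATG, held by 11.9% of all promoters, was in none of the members' promoters. The other members with an entry were PLAU with 2 starts, SERPINB2, TFPI and TFPI2. TFPI2 held 1 AP-1 match and 2 GC boxes, PLAU start 2 held 3 GC boxes, SERPINB2 held 1 AP-1 and 1 TATA box match, and PLAU start 1 and TFPI held none of the motifs. These matches are letters in a window and say nothing of whether a factor binds there.

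PLAT was the member with the widest spread of group means. Its levels were 10.51, 10.43 and 10.59 in Luc, 9.20, 9.81 and 9.75 in KD1, and 12.60, 12.55 and 12.78 in KD2. The 3 groups do not overlap, and all KD1 arrays lie below Luc while all KD2 arrays lie above it. With KD2 it rose by 2.13 (SE 0.17, adjusted p = 7.15e-05), which is 4.38-fold and the 15th highest change of the 16164 probes. With KD1 it fell by 0.93 (SE 0.17, adjusted p = 0.00569), which is 1.90-fold. Of the fibroblast markers, PDGFRB averaged 5.31 (Luc), 4.75 (KD1) and 6.63 (KD2), in the same order as PLAT, while DCN was detected on 2 arrays and LUM on none, and their part in the result was not tested. In these bulk RNA samples, fewer cells that express a gene and less of its RNA per cell cannot be told apart.

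PLAU, the other activator, changed with KD1 alone by the test. Its levels were 12.73, 12.85 and 12.77 in Luc, 11.93, 12.04 and 12.11 in KD1, and 12.80, 13.06 and 12.97 in KD2. All KD1 arrays lie below the other groups, and the KD2 arrays overlap those of Luc. The fall with KD1 was 0.75 on the log2 scale (SE 0.13, adjusted p = 0.00359), or 1.68-fold lower. With KD2 the change was 0.16, with a 95% interval from -0.12 to 0.44 (adjusted p = 0.420). The calls of PLAT with each siRNA and of PLAU with KD1 held in all 19 alternative settings.

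PLAUR, the receptor that holds urokinase at the cell surface, rose with both siRNAs on each of its 3 probes. Probe 1 had levels of 9.71, 9.76 and 9.95 in Luc, 10.47, 10.61 and 10.59 in KD1, and 11.34, 11.10 and 11.05 in KD2. The groups step up from Luc to KD1 to KD2 without overlap. The rise was 0.75 with KD1 (SE 0.13, adjusted p = 0.00481) and 1.36 with KD2 (SE 0.13, adjusted p = 1.71e-04), the latter 2.56-fold.

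Probe 2 ran from 7.72 to 8.21 in Luc, from 8.66 to 9.03 in KD1 and from 9.13 to 9.68 in KD2. Probe 3 ran from 7.87 to 8.07, from 8.38 to 8.68 and from 8.90 to 9.27 in the same groups. Both probes thus repeat the order of probe 1 without overlap of the groups, and over the 9 arrays the 3 probes correlated at 0.9391, 0.9274 and 0.92, over points that share 3 group means. Probe 2 rose by 0.80 with KD1 (adjusted p = 0.0186) and by 1.43 with KD2 (adjusted p = 7.51e-04), and probe 3 by 0.55 (adjusted p = 0.0325) and 1.16 (adjusted p = 6.21e-04). Probes 1 and 2 were annotated to one PLAUR transcript and probe 3 to another, and the array does not tell how far each probe reads the other transcript.

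Of the monocyte markers, CD68 averaged 10.70 (Luc), 11.63 (KD1) and 11.32 (KD2), CD14 averaged 6.18, 5.03 and 5.86 in the same groups, LYZ was detected on 2 arrays, and their part in the PLAUR result was not tested. The KD1 calls of PLAUR probes 2 and 3 did not hold in all settings. The call of probe 2 was lost without Luc replicate 1 (adjusted p = 0.0648) or KD1 replicate 1 (0.0655), and that of probe 3 was lost without Luc replicate 1 (0.0918) or 2 (0.0946) or without KD1 replicate 1 (0.105), 2 (0.0514) or 3 (0.0532). Both were also lost when arrays were scaled to the median of all probes (0.0832 and 0.217), and probe 3 was lost with no detection filter (0.0580). The KD1 change was smaller on the authors' deposited normalized log2 values, at 0.51 for probe 2 and 0.33 for probe 3, and the KD2 change of probe 3 was 0.75 there, all still called. Probe 1 kept its call with each siRNA in all 19 settings.

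SERPINE2, also called protease nexin 1, is a cell-bound inhibitor of urokinase, tissue plasminogen activator and thrombin, and its level fell with both siRNAs. It was 11.61, 11.74 and 11.50 in Luc, 10.37, 10.19 and 10.15 in KD1, and 10.87, 10.64 and 10.36 in KD2. Every array of both siRNAs lies below every Luc array, and the KD1 and KD2 arrays overlap. The fall was 1.38 with KD1 (SE 0.16, adjusted p = 4.98e-04), or 2.60-fold, and 0.99 with KD2 (SE 0.16, adjusted p = 0.00182), or 1.99-fold. Both calls held in all 19 settings.

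F3, the membrane receptor that starts coagulation, also fell with both siRNAs, on both of its probes. Probe 1 had levels of 9.45, 9.47 and 9.26 in Luc, 7.69, 7.99 and 8.03 in KD1, and 8.00, 8.54 and 8.17 in KD2. Probe 2 had levels of 9.22, 8.57 and 8.81 in Luc, 7.77, 7.67 and 8.09 in KD1, and 8.02, 8.16 and 7.93 in KD2. On each probe the arrays of both siRNAs lie below all Luc arrays and overlap each other, and the probes correlated at 0.914 over the 9 arrays.

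Probe 1 of F3 fell by 1.49 with KD1 (SE 0.17, adjusted p = 4.98e-04) and by 1.16 with KD2 (SE 0.17, adjusted p = 0.00122), or 2.82-fold and 2.23-fold. Probe 2 fell by 1.02 (SE 0.19, adjusted p = 0.00512) and by 0.83 (SE 0.19, adjusted p = 0.0102). The calls held in all 19 settings for probe 1 and in all 18 that kept probe 2. On the authors' deposited normalized log2 values the changes of probe 2 were smaller, -0.64 with KD1 and -0.54 with KD2. Of the epithelial markers, EPCAM averaged 9.46 (Luc), 8.96 (KD1) and 8.96 (KD2), CDH1 was detected on 2 arrays and ESRP1 on none, and their part in the F3 result was not tested.

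TFPI, the inhibitor of the tissue factor and factor VII complex, was not called with either siRNA. Probe 1 had levels of 11.41, 11.48 and 11.62 in Luc, 11.94, 12.13 and 11.80 in KD1, and 11.96, 11.75 and 11.99 in KD2. Probe 2 had levels of 11.06, 10.88 and 11.003 in Luc, 11.55, 11.49 and 11.23 in KD1, and 11.26, 11.20 and 11.40 in KD2. On both probes each siRNA array lies above every Luc array, a separation that 34.3% of all tested probes show for KD1 and 39.3% for KD2.

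The differences from Luc were 0.45 with KD1 (adjusted p = 0.0538) and 0.39 with KD2 (adjusted p = 0.0718) on probe 1, and 0.44 (adjusted p = 0.0524) and 0.30 (adjusted p = 0.142) on probe 2. They lie at the edge of the test, with 95% intervals on probe 1 from 0.14 to 0.76 and from 0.08 to 0.70. Probe 1 was called with KD1 in 6 of 19 settings, among them the authors' deposited normalized log2 values (adjusted p = 0.00336), and with KD2 in 5. Probe 3, annotated to a different TFPI transcript from the other probes, had levels near background, between 5.17 and 5.99 over all arrays, and was not detected on KD1 replicate 2. Its groups overlap, and its correlations with probes 1 and 2 were -0.04 and -0.12.

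TFPI2, the matrix inhibitor of plasmin and of the factor VII complex, rose with KD2. It had levels of 5.95, 6.06 and 5.50 in Luc, 5.00, 6.15 and 5.88 in KD1, and 7.20, 7.45 and 7.03 in KD2, and KD1 replicate 1 was not detected. All KD2 arrays lie above the other groups, while KD1 and Luc overlap. The rise with KD2 was 1.39 (SE 0.28, adjusted p = 0.00602), or 2.62-fold. The change with KD1 was -0.16, with a 95% interval from -0.78 to 0.45 (adjusted p = 0.747). Since this probe is close to background, the size of its change depends on the background step, and it was 0.67 without background correction and 0.44 on the authors' deposited normalized log2 values, still called in each.

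THBD, the receptor that redirects thrombin, was also close to background. It had levels of 5.92, 5.27 and 5.66 in Luc, 4.87, 4.70 and 4.85 in KD1, and 5.77, 5.83 and 6.80 in KD2. The KD1 arrays lie lowest and were not well above background on any of the 3, and Luc and KD2 overlap. Neither siRNA gave a call against Luc, with a difference of -0.81 for KD1 (adjusted p = 0.0647) and of 0.52 for KD2 (adjusted p = 0.199). The differences were -0.29 and 0.21 without background correction, and -0.16 and 0.13 on the authors' deposited normalized log2 values. Against the detection floor, Luc was at least 1.31-fold brighter than KD1 on the scale of the main processing. The KD1 arrays also had the fewest detected probes of the 3 groups, 29.8% to 31.0% beside 31.5% to 32.3% in KD2 and 32.1% to 35.9% in Luc, and the part of this in the THBD difference was not tested.

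**Figure D2:**
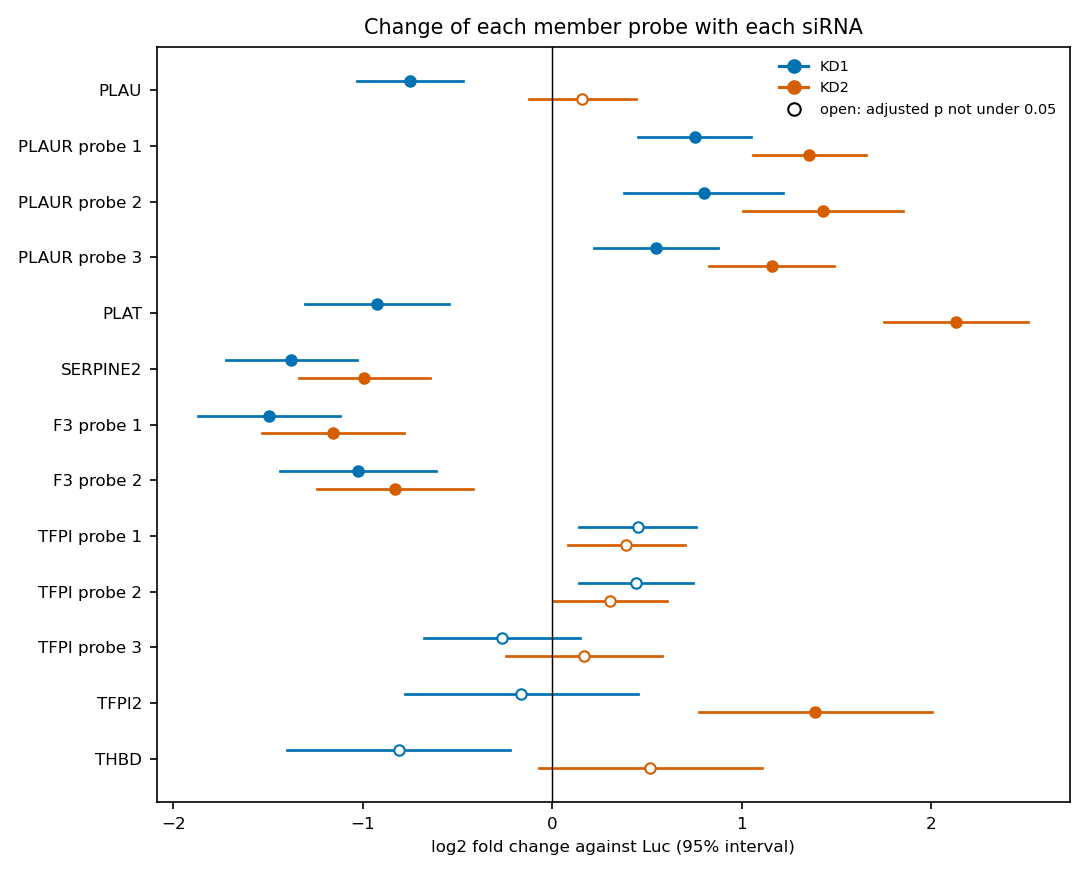
The horizontal axis gives the change against Luc of each member probe on the log2 scale with its 95% interval, for KD1 and KD2, and open points missed the adjusted p of 0.05. PLAT lies on opposite sides of 0, at -0.93 and 2.13, the PLAUR probes lie to the right for both siRNAs, and SERPINE2 and F3 lie to the left for both.

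The siRNAs were also set against each other, since both were made against the same target. Of 13 probes 7 were called, all lower in KD1 than in KD2, in a comparison that called 25.7% of all tested probes, 12.4% higher and 13.3% lower. These were PLAU, PLAT, TFPI2, THBD and the 3 probes of PLAUR. The median over the 13 probes was -0.61, beside 0.01 over all tested probes.

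PLAT had the widest gap, at -3.06 (SE 0.17, adjusted p = 4.87e-06), an 8.33-fold lower level in KD1 and the 9th lowest change of the 16164 probes. PLAU differed by -0.91 (adjusted p = 6.37e-04) and TFPI2 by -1.55 (adjusted p = 0.00264). THBD differed by -1.33 (adjusted p = 0.00478), and against the detection floor KD2 was at least 1.87-fold brighter on the scale of the main processing. On the authors' deposited normalized log2 values the gaps of the probes near background shrank to -0.47 for TFPI2 and -0.29 for THBD, both still called.

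PLAUR rose with both siRNAs but less with KD1, by -0.61 (adjusted p = 0.00829), -0.63 (adjusted p = 0.0343) and -0.61 (adjusted p = 0.0127) on its probes 1 to 3. The call of probe 2 was lost without KD1 replicate 2 (adjusted p = 0.0995), KD1 replicate 3 (0.0853), KD2 replicate 1 (0.0913) or KD2 replicate 3 (0.111), and with no detection filter (0.0689). SERPINE2 and F3 were not called between the siRNAs. The interval of the difference ran from -0.73 to -0.04 for SERPINE2 (adjusted p = 0.0969) and from -0.71 to 0.04 for F3 probe 1 (adjusted p = 0.177), so the test does not show that the siRNAs act alike on them.

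**Figure D3:**
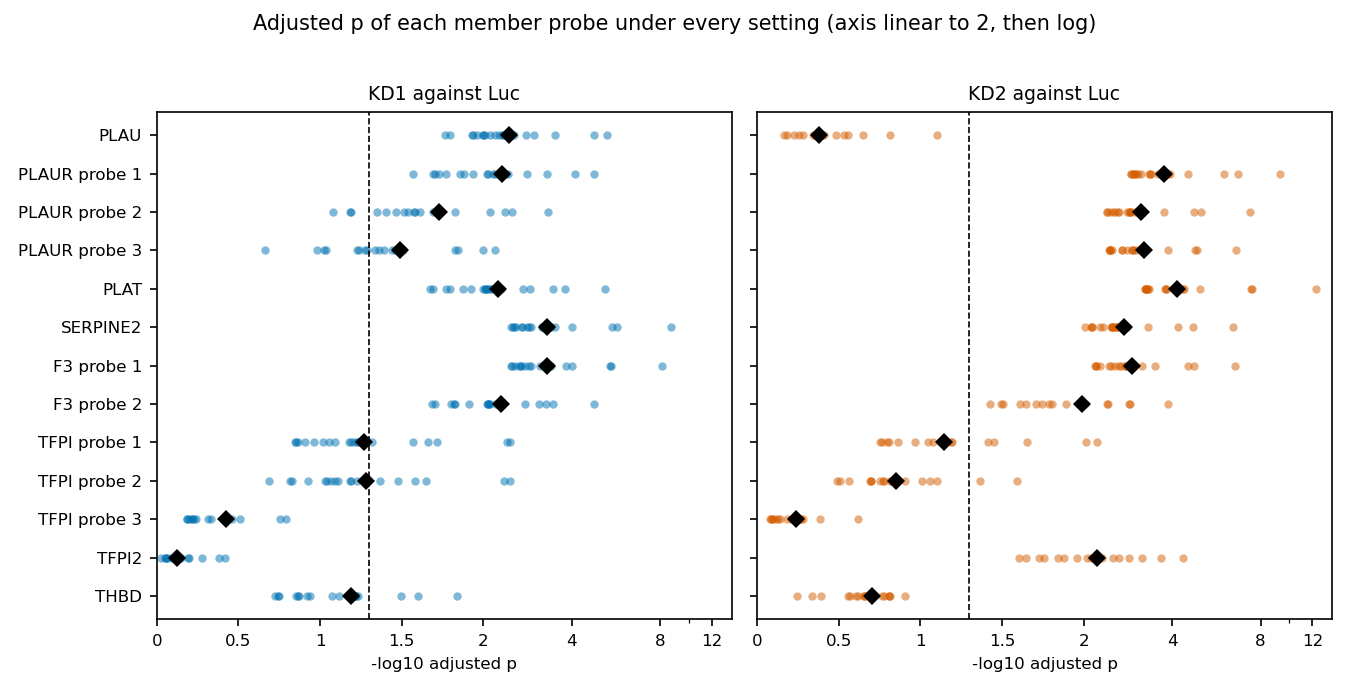
Each row is 1 member probe, with the minus log10 of its adjusted p on the horizontal axis (linear to 2, then log), for KD1 and KD2 against Luc. Diamonds are the main setting, dots the alternative settings, and the dashed line marks an adjusted p of 0.05. PLAT, PLAUR probe 1, SERPINE2 and both F3 probes stay to the right of the line in both panels, and TFPI probes 1 and 2 cross it.

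For the genes called with both siRNAs, the probes of other genes with the most similar levels over the 9 arrays were listed by Pearson correlation, as a description over points that share 3 group means. PLAUR probe 1 was nearest to LYPLA2 (0.991), a thioesterase, MT1X (0.9871), a metallothionein, and CDKN1A (0.9795), the cell cycle inhibitor p21. SERPINE2 was nearest to IGF2BP3 (0.9889), an RNA-binding protein, RPL34 (0.9851), a ribosomal protein, and YIPF4 (0.9839). F3 probe 1 was nearest to SYNCRIP (0.9802), an RNA-binding protein, RAB11FIP2 (0.9756), a factor of endosome recycling, and MAPK8 (0.9744), the kinase JNK1. The nearest genes differed between probes of the same gene, with AP1M1 (0.9836) first for PLAUR probe 2, MIS18A (0.9848) for PLAUR probe 3 and ALOX5AP (0.9801) for F3 probe 2.

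The surrounding pathways were read through 5 lists of 91 other genes, of which 87 had a probe and 41 were tested, each by its brightest probe. Over the brightest probes of all 10264 named genes, 17.3% were called with KD1 (7.18% higher and 10.1% lower), 23.8% with KD2 (11.5% and 12.3%) and 28.8% between the siRNAs (13.4% and 15.4%).

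In the list of fibrinolysis and cell-surface plasminogen, 11 of 19 genes were tested. With KD1 none rose and 1 fell, with a median change of -0.28. THBS1 (thrombospondin 1, a matrix protein that binds plasminogen and its activators) fell by 1.46 (SE 0.19, adjusted p = 0.00102). With KD2, 3 rose and 1 fell, with a median of 0.26. SERPINI1 (neuroserpin, an inhibitor of tissue plasminogen activator) rose by 1.12 (SE 0.20, adjusted p = 0.00359). SERPINA5 (protein C inhibitor) was at least 1.70-fold brighter in KD2 than in Luc on the scale of the main processing. Its probe was detected on all 3 KD2 arrays and on no Luc or KD1 array. It thus passed the detection filter only through KD2, where it is high, and its place among the 3 is a description only. The SERPINA5 change was 0.34 without background correction and 0.19 on the authors' deposited normalized log2 values.

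ANXA2 (annexin A2, a docking site for plasminogen and PLAT) rose by 0.45 with KD2 (adjusted p = 0.0263), and IGF2R (a receptor that can bind plasminogen) fell by 0.64 (adjusted p = 0.0183). Of the 2 other tested probes of ANXA2, 1 was called in the same direction. Both calls were lost without single arrays. For ANXA2 the adjusted p was 0.0602 without Luc replicate 1, 0.0668 without Luc replicate 2, 0.0665 without Luc replicate 3, 0.0597 without KD2 replicate 1 and 0.0640 without KD2 replicate 3. For IGF2R it was 0.0663 without Luc replicate 2, 0.0547 without Luc replicate 3 and 0.0626 without KD2 replicate 1.

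Between the siRNAs 1 gene of this list was higher and 6 were lower in KD1, with a median of -0.46. THBS1 had a difference of -2.00 (adjusted p = 7.44e-05), while its change with KD2 against Luc was 0.53 (adjusted p = 0.0732). SERPINA5 passed the detection filter only through KD2, so its place among the 6 is a description only. SERPINI1 and SERPINA5 were not well above background in KD1. For them KD2 was at least 2.64-fold and 1.55-fold brighter on the scale of the main processing (adjusted p = 2.08e-04 for SERPINI1). On the authors' deposited normalized log2 values these differences were -0.41 for SERPINI1 and -0.27 for SERPINA5, which are smaller than those bounds. IGF2R was the gene higher in KD1, by 0.80 (adjusted p = 0.00528).

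In the list of coagulation factors and anticoagulants, 13 of 29 genes were tested. With KD1 1 rose and 3 fell, with a median of 0.21, and with KD2 1 rose and 4 fell, with a median of 0.02. MCFD2, which with LMAN1 carries factors V and VIII out of the endoplasmic reticulum, fell by 2.61 with KD1 (SE 0.16, adjusted p = 2.54e-05), and its second probe was called too, at -0.96. P4HB (protein disulfide isomerase) fell by 0.55 with KD1 (adjusted p = 0.0116), and ADTRP, a regulator of TFPI, rose by 0.82 (adjusted p = 0.00548).

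With KD2, LMAN1 fell by 1.03 (adjusted p = 0.0120) to a level detected on 1 of 3 arrays, and PROCR (the endothelial protein C receptor) fell by 0.93 (adjusted p = 0.0107). VKORC1, the enzyme that recycles vitamin K for clotting factors, rose by 0.74 (adjusted p = 0.00574) on its brightest probe, while its second probe, at 0.54, was not called. PROS1 (protein S, a cofactor of protein C and of TFPI) fell with both siRNAs, by 0.52 with KD1 (adjusted p = 0.0223) and by 0.60 with KD2 (adjusted p = 0.00825). The KD1 call of PROS1 did not hold when Luc replicate 1 (adjusted p = 0.0709) or 2 (0.0658), or KD1 replicate 2 (0.0515) or 3 (0.0754), was left out.

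Between the siRNAs 4 genes of the coagulation list were higher and 4 lower in KD1, with a median of 0.08. PROCR was higher in KD1 by 1.44 (adjusted p = 8.63e-04), GAS6 (a vitamin K dependent ligand of AXL) by 0.81 (adjusted p = 0.00540) and ADTRP by 0.80 (adjusted p = 0.00352). MCFD2 differed by -2.62 (adjusted p = 7.88e-06), VKORC1 by -0.87 (adjusted p = 0.00199, with its second probe not called at -0.53) and P4HB by -0.65 (adjusted p = 0.00289). These genes thus split between the directions. The called member probes were all lower in KD1, and most called genes of 3 other lists were lower in KD1 too. Those lists gave 1 higher and 6 lower for fibrinolysis, and none higher and 3 lower for the other serpins. The Kunitz inhibitors and other serine proteases also gave none higher and 3 lower. Over the brightest probes of all named genes, 13.4% were called higher and 15.4% lower. Of the 6 fibrinolysis genes, SERPINI1, SERPINA5 and SERPINF2 were detected on no KD1 array, and F12 lost its call in 7 of 19 settings.

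Of the protease-activated receptors, through which thrombin and other proteases signal, 2 of 4 were tested and neither was called on its brightest probe. F2R (the thrombin receptor PAR1) had changes of 0.26 with KD1 (adjusted p = 0.248) and 0.08 with KD2 (adjusted p = 0.751) on its brightest probe. Its second probe was called with KD2 at 0.64 and had a change of -0.34 with KD1. Between the siRNAs the difference was 0.18 (adjusted p = 0.380) on the brightest probe and -0.98 on the second, so the F2R probes differ. F2RL3 (PAR4) had changes of -0.37 (adjusted p = 0.434) and 0.37 (adjusted p = 0.401).

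Among the other serpins, 6 of 18 were tested. With KD1 none rose and 2 fell, with a median of -0.47, and with KD2 1 rose and 1 fell, with a median of -0.11. SERPINB1, an inhibitor of neutrophil proteases, fell by 1.08 with KD1 (SE 0.12, adjusted p = 4.98e-04), and SERPINA1 (alpha-1-antitrypsin) rose by 1.09 with KD2 (SE 0.14, adjusted p = 6.08e-04). SERPINA3 (alpha-1-antichymotrypsin) was detected on all Luc arrays and on no array of either siRNA. On the scale of the main processing, its Luc level was brighter than that of KD1 by at least 1.07-fold and than that of KD2 by at least 1.12-fold. SERPINA3 thus passed the detection filter only through Luc, where it is high, and its place among the fallen genes is a description only. Its KD1 call was lost without KD1 replicate 3 (adjusted p = 0.0501), without background correction (0.173), with an offset of 50 (0.120), with scaling to the median of detected probes (0.109) and on the authors' deposited normalized log2 values (0.227). On those deposited values the SERPINA3 change was -0.11 with KD1 and -0.16 with KD2.

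Between the siRNAs none of these serpins was higher in KD1 and 3 were lower, with a median of -0.47. The difference was -1.30 for SERPINA1 (adjusted p = 1.38e-04), -0.94 for SERPINB9 (the granzyme B inhibitor, adjusted p = 0.00890) and -0.75 for SERPINB1 (adjusted p = 0.00161).

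Of the Kunitz inhibitors and other serine proteases, 9 of 21 were tested. With KD1 none rose and 1 fell, with a median of -0.17, and with KD2 1 rose and none fell, with a median of 0.24. HTRA1, a secreted serine protease, rose by 0.72 with KD2 (SE 0.15, adjusted p = 0.00835). SPINT2, a Kunitz inhibitor of HGF activator and matriptase, fell by 0.53 with KD1 (adjusted p = 0.0341). The call ended when Luc replicate 2 (0.0627) or 3 (0.0955), or KD1 replicate 1 (0.0829) or 3 (0.111), was left out. It was also lost with scaling to the median of detected probes (0.0689), with no detection filter (0.0602) and with only the 2 groups compared (0.0660).

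Between the siRNAs 3 genes of this list were lower in KD1 and none higher, with a median of -0.29. HTRA1 differed by -0.88 (adjusted p = 0.00239), PRSS23 by -0.74 (adjusted p = 0.0132) and SPINT2 by -0.54 (adjusted p = 0.0217). The SPINT2 call was lost without KD1 replicate 1 (0.0540), KD1 replicate 3 (0.0757) or KD2 replicate 2 (0.0672).

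**Figure D4:**
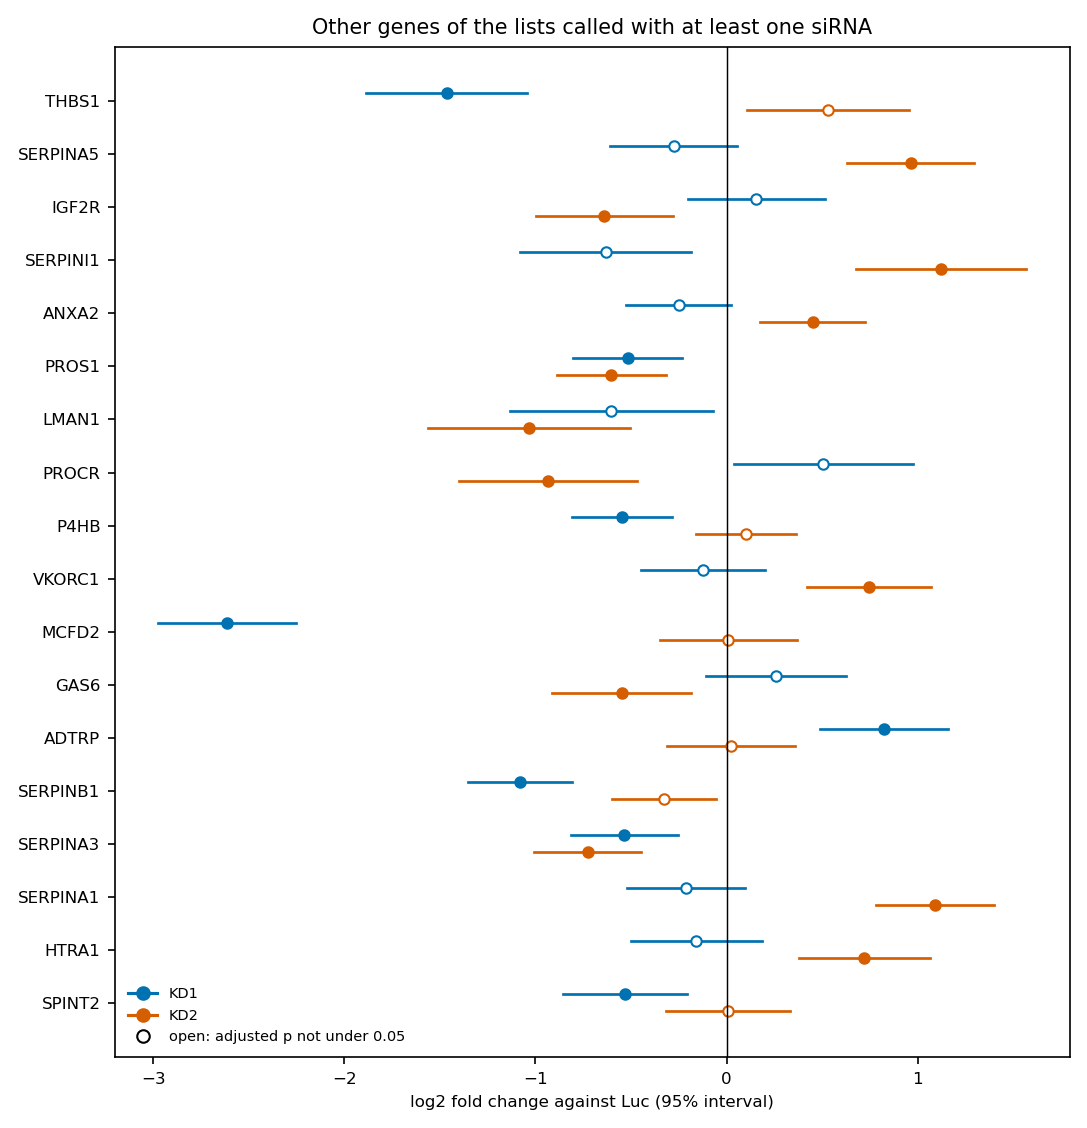
The horizontal axis gives the change against Luc on the log2 scale with its 95% interval for the 18 other genes of the lists called with KD1 or KD2, and open points missed the adjusted p of 0.05. MCFD2 with KD1 (-2.61) and THBS1 with KD1 (-1.46) lie farthest to the left, and SERPINI1 with KD2 (1.12) and SERPINA1 with KD2 (1.09) farthest to the right. PROS1 and SERPINA3 are filled for both siRNAs. SERPINA3 passed the detection filter only through Luc and SERPINA5 only through KD2, so their filled points are a description only.

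Changes of several of these genes were smaller on the authors' deposited normalized log2 values, with their calls kept. Against Luc they were 0.28 for SERPINI1 with KD2, 0.23 for ADTRP with KD1, and -0.23 for LMAN1 and -0.43 for PROCR with KD2. Between the siRNAs they were 0.73 for PROCR, 0.23 for ADTRP and -0.22 for SERPINB9.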

How the data were processed

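Total RNA of 9 samples was hybridised as biotin-labelled cRNA, per the labels' protocols. The deposited intensity of each probe is a linear bead-summarised signal with no normalization between arrays, and a detection p-value was deposited beside it, per the file headers. The authors also deposited values near log2 that are quantile-normalized, with lumi named in the submitters' processing notes, without version or steps.

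The intensities were processed in limma 3.58.1 (R 4.3.3), with normexp background correction against negative controls inferred from the detection p-values, an offset of 16, quantile normalization and log2. Probe symbols are those of the platform annotation, updated through a RefSeq table (28094 of 48799 probes had 1 symbol). Each probe detected (p under 0.05) on 3 or more arrays was tested as its own feature, in 1 fit over the 3 groups with 6 residual degrees of freedom. Tests were two-sided with Benjamini-Hochberg adjustment. The procedure was tested on simulated data. With 3 arrays a group, exact permutation reaches p = 0.1 at best and was not used. A group without detection was given a bound at each array's lowest detected signal.

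The members and lists were chosen with earlier results of these data known. Of each list, up to 3 called genes per direction and comparison with the largest change were named, with the protease-activated receptors, and likeness is the 3 nearest named probes. Deviations of same-numbered arrays correlated at -0.02 to 0.11, beside -0.09 to 0.06 for arrays of different numbers. The numbers were not taken as pairs, although such low values do not show that pairing is absent. A fit with the number as a block is given below. The alternatives were 19 settings of background, scaling, filter, probes, samples and block. The proteins' sequences were not used here, and PLAT and THBD had no promoter entry.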

Additional observations from a re-analysis of the deposited data

Results flagged for a closer look

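Each result here was picked out because KD1 and KD2 differed from each other in the limma fit, as a test of the difference between their effects against the shared Luc arrays. The level in KD1 minus that in KD2 was -3.06 for PLAT, -1.55 for TFPI2 and -0.91 for PLAU, and -0.61, -0.63 and -0.61 for PLAUR probes 1, 2 and 3. For THBD the fitted difference was -1.33, but no KD1 array detected the probe, so the value is not an exact fold. The bound on the scale of the main processing is at least 1.87-fold brighter in KD2, and on the authors' deposited normalized log2 values the THBD difference was -0.29 and that of TFPI2 -0.47. PLAT is the member whose change against Luc was called in opposite directions with the siRNAs, at -0.93 with KD1 and 2.13 with KD2. In each of these 7 results all 3 KD1 arrays lay below all 3 KD2 arrays, a separation in either direction that 41.1% of all tested probes show.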

How the results depend on the processing

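The member values were recomputed under 19 alternatives, 1 of them (scaling to the median of all probes) chosen after seeing the data. Of 717 recomputed values, 670 kept their direction and side of the threshold, 16 lost a call, 27 gained one and 4 changed sign. The counts of called probes ranged over the fits without single arrays from 6 to 9 for KD1, stayed at 8 for KD2, and ranged from 6 to 8 between the siRNAs and from 4 to 6 for both siRNAs with the same sign. With 1 probe per gene, which tests fewer probes, 5 were called with KD2 and 3 with both siRNAs. Values that were not called changed sign for TFPI2 with KD1 (from -0.41 to 0.18 over the fits without single arrays, the latter without KD1 replicate 1), for TFPI probe 1 between the siRNAs (-0.077 with scaling to the median of all probes, and from -0.026 without KD1 replicate 2 to 0.14 without KD1 replicate 3) and for F2R with KD2 (from -0.028 without Luc replicate 1 to 0.16 without Luc replicate 3). THBD with KD1 was called in 3 settings (lowest adjusted p = 0.0145) and SERPINE2 between the siRNAs in 3 (lowest 0.0177). With KD1, 43.5% of called probes over the whole array were higher, against 53.8% with scaling to the median of detected probes and 15.8% with scaling to that of all probes, which moved the median of tested probes by -0.17, and 35.1% against 48.2% were higher with KD2 under the latter and 32.6% against 48.3% in KD1 against KD2. The members gave 3 higher and 5 lower with KD1 in the main setting, 5 and 5 under the former and 1 and 6 under the latter. The whole-array count for KD1 was 2497, and 1628 without Luc replicate 2. The cause of these changes was not tested.

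With the replicate number as a block, 7 member probes were called with KD1, 8 with KD2, 7 between the siRNAs and 5 with both. PLAUR probe 3 lost its KD1 call under the block (adjusted p = 0.0595), as did SPINT2 (0.0570). Only 1 of 9 same-numbered pairs of arrays had a correlation of deviations over 0.1. Probes near background limit what can be said of TFPI probe 3, TFPI2 and THBD.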
